A study of Mus musculus with 4 samples.

Results

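The transcripts of 10 genes that encode chaperones, disulfide isomerases and stress factors of the endoplasmic reticulum (ER) were compared between cardiac fibroblasts depleted of Nr4a3 and control fibroblasts. The genes were chosen by name (Hspa5, Hsp90b1, Calr, Canx, Pdia3, Pdia4, Pdia6, Xbp1, Dnajb9 and Herpud1), with earlier results of these data known. All 10 were among the 13192 genes with counts and among the 13160 tested. The shNr4a3 group had 2 RNA-seq libraries of primary mouse cells labelled wild type, from neonatal heart, that received a short hairpin RNA against the orphan nuclear receptor Nr4a3. The shNT group had 2 libraries of the same kind of cells with a non-targeting hairpin. All 4 were collected at day 7, and an unexplained tag, P3, stands in their titles. Whether the replicates were separate cultures is not stated, so each p-value reflects the spread between the libraries alone, and that spread may be technical.

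Most secreted and membrane proteins fold in the ER. Hspa5 (BiP), an Hsp70 chaperone, holds unfolded chains. Calnexin and calreticulin bind chains through their sugars, and protein disulfide isomerases form and rearrange disulfide bonds. When unfolded protein accumulates, the sensors IRE1, PERK and ATF6 start the unfolded protein response (UPR), which raises transcription of chaperone genes. Fibroblasts secrete much collagen and other matrix and therefore run a large ER folding machinery.

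Library totals ran from 34246969 to 34813598 counts in shNr4a3 and from 34068241 to 35111013 in shNT. The targeted gene Nr4a3 had 4 and 8 counts in shNr4a3 and 60 and 29 in shNT, a log2 fold change of -2.98 ± 0.67 (SE; adjusted p = 3.22e-04, edgeR). Summed over 8 fibroblast markers, normalised CPM was 7091 and 7188 in shNr4a3 and 12687 and 12191 in shNT; 5 of the 8 fell and 3 rose. All 8 epicardial and mesothelial markers fell (sum 121 to 124 in shNr4a3, 536 to 562 in shNT), as did 6 of 7 endothelial markers (54.8 to 59.2 in shNr4a3, 227 to 233 in shNT). Of 7 tested cardiomyocyte markers 1 rose and 1 fell (sum 485 to 510 in shNr4a3, 1005 to 1061 in shNT), of 5 smooth muscle and pericyte markers 1 rose and 3 fell (sum 196 to 200 in shNr4a3, 319 to 366 in shNT), and of 4 macrophage and leukocyte markers 1 rose and 2 fell (sum 98.8 to 99.4 in shNr4a3, 59.1 to 59.8 in shNT). Actc1, Kcnj8, Adgre1 and C1qa of these lists were not among the listed genes. The part of these markers in the ER gene results was not tested, and in bulk RNA fewer cells of a type and less RNA per cell cannot be told apart.

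The promoters of these genes are shown first, since several carry the element through which the UPR acts. In the ER stress response element (ERSE), CCAAT is bound by NF-Y and, 9 bases further on, CCACG by ATF6 or XBP1; in the shorter ERSE-II, ATTGG and CCACG are 1 base apart. Windows from 250 bases before to 50 bases after the RefSeq transcript start (GRCm38.p6) were found for all 10 genes and searched on both strands. An ERSE was present in 5 of the 10, with a second copy in Hsp90b1, against 39 of 32851 mouse promoter windows (0.119%). Herpud1 held an ERSE-II, found in 12 windows (0.0365%). Each match is printed below in the direction of the gene with 20 bases on either side, with the fixed letters of the element, or their reverse complement, in capitals.
Hspa5 ERSE, chr2:34772005-34772063, plus strand: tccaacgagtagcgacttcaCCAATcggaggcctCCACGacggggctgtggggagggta
Hsp90b1 ERSE farther from the start, chr10:86705618-86705676, minus strand: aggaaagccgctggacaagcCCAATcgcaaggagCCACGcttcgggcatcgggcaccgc
Hsp90b1 ERSE nearer the start, reversed, chr10:86705513-86705571, minus strand: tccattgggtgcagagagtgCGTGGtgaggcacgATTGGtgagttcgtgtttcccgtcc
Calr ERSE, reversed, chr8:84847055-84847113, minus strand: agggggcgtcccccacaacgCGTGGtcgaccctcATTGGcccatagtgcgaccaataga
Canx ERSE, chr11:50325780-50325838, minus strand: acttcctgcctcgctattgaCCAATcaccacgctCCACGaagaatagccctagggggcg
Pdia6 ERSE, chr12:17266471-17266529, plus strand: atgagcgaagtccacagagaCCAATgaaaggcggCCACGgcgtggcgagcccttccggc
Herpud1 ERSE-II, chr8:94386357-94386407, plus strand: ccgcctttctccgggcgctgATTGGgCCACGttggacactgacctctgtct

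The Hspa5 match began 65 bases before the RefSeq transcript start and the Pdia6 match 98 bases before its own. Hspa5 also held the UPR element core TGACGTGA, which was in 145 windows (0.441%), while its other form TGACGTGG, in 222 windows (0.676%), was in none of the 10. The site bound by single NR4A proteins, AAAGGTCA, was in 495 windows (1.51%) and in none of the 10. A match is a stretch of letters and not a measured binding site. No match to any of these motifs was present in the windows of Pdia3, Pdia4, Xbp1 and Dnajb9. The RefSeq start of Dnajb9 lies inside the GENCODE gene, so its whole window does too, and no bases upstream of the GENCODE start were searched. The RefSeq starts of Pdia3, Hspa5, Hsp90b1, Calr and Pdia6 also lie inside their GENCODE genes. Only part of each of their windows lies upstream of the GENCODE start. The Hspa5 ERSE lies inside the GENCODE gene, and the Pdia6 ERSE lies upstream of the GENCODE start.

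**Figure D1:**
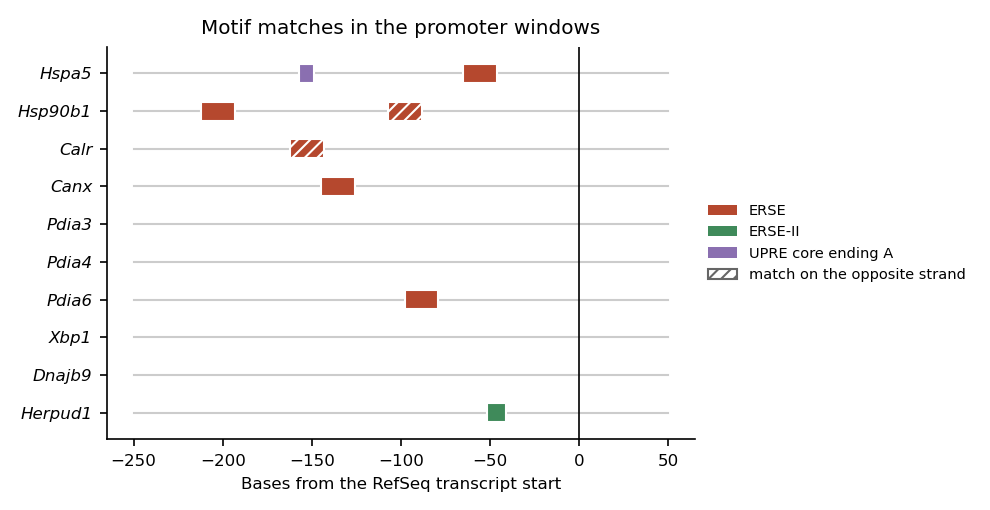
Position of each motif match in the promoter window of each gene, in bases from the RefSeq transcript start, with boxes coloured by motif and hatched where the match is on the opposite strand. ERSE boxes are present in Hspa5, Hsp90b1, Calr, Canx and Pdia6, and the ERSE-II box in Herpud1.

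The 10 genes did not move as a block after Nr4a3 knockdown. Pdia6, Calr, Herpud1 and Canx fell, Pdia3 rose, and Hspa5, Hsp90b1, Pdia4, Xbp1 and Dnajb9 did not pass the test. Of the 10, 5 were called at an adjusted p under 0.05 (edgeR), against 55.5% of all genes tested; 4 were lower, against 27.9% of all genes, and 1 was higher, against 27.6%. The share called was thus near that of all genes. The median log2 fold change of the 10 was -0.12, against 0.00 over all genes, and their median absolute log2 fold change was 0.14, against 0.35. The genes behind these medians were not matched for expression level. Together they took 0.401% and 0.399% of counts in shNr4a3 and 0.406% and 0.417% in shNT. In 8 of the 10 both shNr4a3 libraries lay on one side of both shNT libraries, against 77.2% of all genes. Values below are normalised CPM (counts divided by library size, adjusted with TMM factors) unless raw counts are named; errors on log2 fold changes are SE with n = 2 per group, and adjusted p-values are from edgeR's quasi-likelihood test with Benjamini-Hochberg adjustment over all genes.

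**Figure D2:**
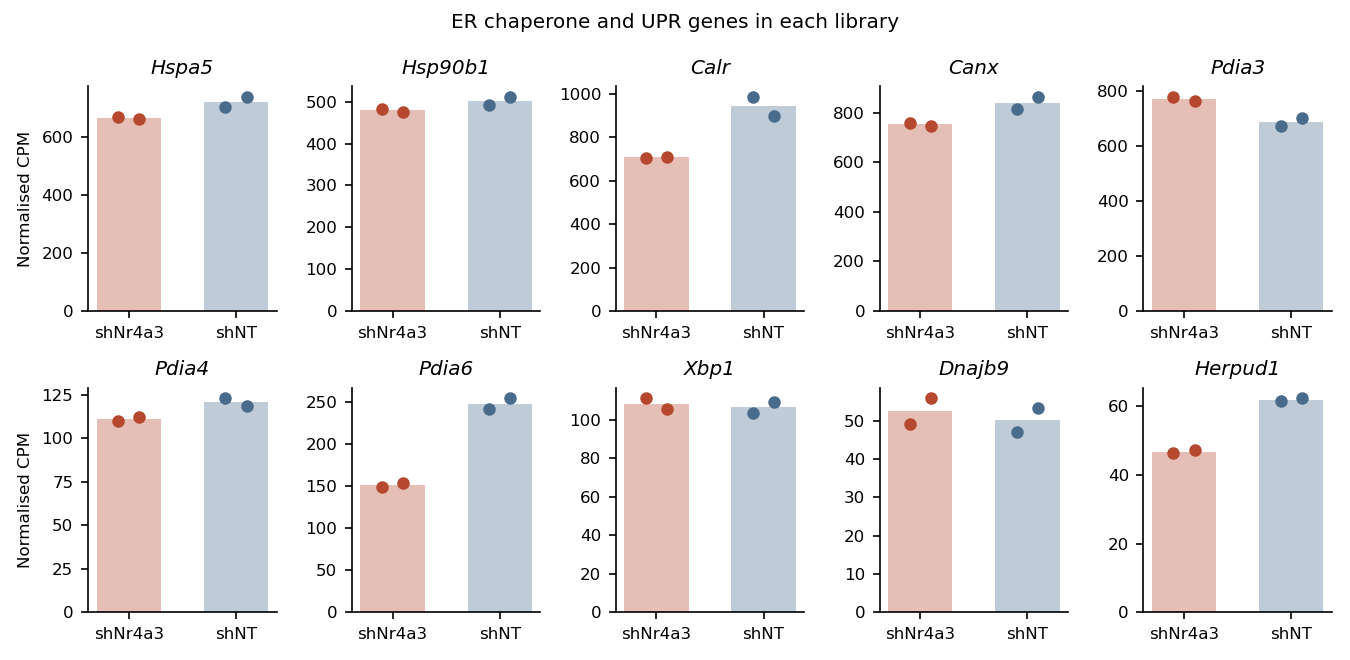
Normalised CPM of each gene in the 2 shNr4a3 and 2 shNT libraries (points) with the group mean (bar), each panel on its own axis from 0. Pdia6 lies at 148 and 154 in shNr4a3, below 241 and 254 in shNT, whereas the points of Xbp1 and Dnajb9 overlap.

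None of the Hsp70 and Hsp90 chaperones and their J-domain partner passed the test. Hspa5 (chromosome 2, 34771970 to 34777547; gene positions are GENCODE M21 on GRCm38), the Hsp70 of the ER and the protein that keeps the UPR sensors inactive, had 23875 and 24101 counts in shNr4a3 and 22986 and 25113 in shNT, or 672 and 664 normalised CPM in shNr4a3 and 705 and 740 in shNT. Both shNr4a3 libraries lay below both shNT libraries after scaling, and the raw counts overlapped. Its log2 fold change was -0.11 ± 0.05 (95% interval -0.22 to -0.01; adjusted p = 0.0616, edgeR), so a fall of more than 0.22 lay outside the interval. When 1 library is left out, its group holds a single library and the spread comes from the other group's pair alone, which was tighter in shNr4a3 (chi-square per gene between replicates 4.0) than in shNT (11.2), so a p obtained that way is no firmer than that of the 4 libraries. With shNT replicate 1 left out Hspa5 passed at -0.15 (adjusted p = 1.61e-06, edgeR), and with shNT replicate 2 left out at -0.075 (adjusted p = 0.0181, edgeR). With library totals as the only scaling it stood at -0.00057 (adjusted p = 0.994, edgeR).

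Hsp90b1 (GRP94; chromosome 10, 86690209 to 86705509), the Hsp90 of the ER, which folds integrins and Toll-like receptors, had 483 and 476 CPM in shNr4a3 and 492 and 512 in shNT. The groups lay close together without overlap. The log2 fold change was -0.07 ± 0.05 (95% interval -0.17 to 0.04; adjusted p = 0.300, edgeR), and it was 0.047 with library totals only. When shNT replicate 1 was left out it was -0.092 and passed (adjusted p = 0.00745, edgeR), with the spread taken from the shNr4a3 pair alone. The ratio of Hsp90b1 to Hspa5 counts within a library, which no scaling touches, was 0.719 and 0.717 in shNr4a3 and 0.698 and 0.691 in shNT.

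Dnajb9 (ERdj4; chromosome 12, 44205559 to 44210326), a J-domain partner that delivers clients to Hspa5, had 49.3 and 55.9 CPM in shNr4a3 and 47.0 and 53.3 in shNT, and the groups overlapped. Its log2 fold change was 0.07 ± 0.09 (95% interval -0.11 to 0.24; adjusted p = 0.532, edgeR). The sign turned when shNr4a3 replicate 2 (-0.027) or shNT replicate 1 (-0.018) was left out.

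The lectin chaperones both fell, calreticulin more. Calr (chromosome 8, 84841850 to 84846934), soluble in the ER lumen and a calcium store as well as a chaperone, had 25113 and 25738 counts in shNr4a3 and 32194 and 30476 in shNT. In normalised CPM it had 706 and 710 in shNr4a3 and 987 and 898 in shNT, so the groups were well apart and the shNT pair spread more. The log2 fold change was -0.41 ± 0.05 and the level fell by 24.9% (adjusted p = 7.72e-08, edgeR). Canx (chromosome 11, 50293961 to 50325673), the membrane-anchored counterpart, had 760 and 747 CPM in shNr4a3 and 814 and 865 in shNT. Its log2 fold change was -0.16 ± 0.05 and the level fell by 10.2% (adjusted p = 0.0109, edgeR). The Canx call was lost with library totals only (-0.043, adjusted p = 0.485, edgeR). It was also lost when shNr4a3 replicate 1 (-0.17, adjusted p = 0.171) or replicate 2 of that group (-0.14, adjusted p = 0.256) was left out (edgeR), where the fold change stayed close to -0.16 and the spread came from the shNT pair alone. The within-library ratio of Calr to Canx counts was 0.929 and 0.950 in shNr4a3 and 1.21 and 1.04 in shNT, lower in both shNr4a3 libraries.

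The disulfide isomerases went in different directions. Pdia6 (P5; chromosome 12, 17266545 to 17284770), an isomerase that works with Hspa5 and acts on IRE1, had 5277 and 5574 counts in shNr4a3 and 7870 and 8629 in shNT. At 148 and 154 CPM in shNr4a3 and 241 and 254 in shNT it showed the widest gap of the 10 genes relative to its level. The log2 fold change was -0.71 ± 0.06, a 1.64-fold lower level (adjusted p = 8.48e-12, edgeR). Pdia6 was also the only one of the 10 called when edgeR tested whether the change exceeded 0.5 on the log2 scale in either direction (adjusted p = 0.0011), a test that 16% of all genes passed. The authors' deposited table lists Pdia6 at -0.72 with an adjusted p of 0.00444, and gives an adjusted p of 1 for the rest of the set. That includes Calr, listed at -0.42 with an SE of 0.059. DESeq2, run here as an alternative, gave the deposited log2 fold changes for all 10 genes and called 4 lower and 1 higher. Which size of change the deposited p-values were tested against is not stated. It was not worked out from the deposited test score, so these p-values are not set against the calls made here.

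Pdia3 (ERp57; chromosome 2, 121413775 to 121438687), the isomerase that calnexin and calreticulin recruit to glycoproteins, had 27682 and 27677 counts in shNr4a3 and 21901 and 23765 in shNT. It was the only one of the 10 called higher, at 779 and 763 CPM in shNr4a3 and 672 and 701 in shNT. Its log2 fold change was 0.17 ± 0.05, a level 12.3% higher (adjusted p = 0.00617, edgeR), and the call was lost when shNr4a3 replicate 1 (0.15, adjusted p = 0.211) or replicate 2 of that group (0.18, adjusted p = 0.128) was left out (edgeR), again with a similar fold change and the spread of the shNT pair alone. Counts of Pdia6 per count of Pdia3 within a library came to 0.191 and 0.201 in shNr4a3 and 0.359 and 0.363 in shNT. That ratio, free of any scaling between libraries, was lower in both shNr4a3 libraries by more than the replicates differed. Pdia6 and Pdia3 had the lowest and highest log2 fold changes of the 10, so the gap restates those changes.

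Pdia4 (ERp72; chromosome 6, 47796141 to 47813430), an isomerase that associates with the Hspa5 and Hsp90b1 chaperones, had 110 and 112 CPM in shNr4a3 and 123 and 119 in shNT. The libraries did not overlap, and the log2 fold change of -0.12 ± 0.06 did not pass (95% interval -0.25 to 0.01; adjusted p = 0.113, edgeR). With shNT replicate 2 left out, Pdia4 passed at -0.14 (adjusted p = 0.0173, edgeR), again on the spread of the shNr4a3 pair alone.

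**Figure D3:**
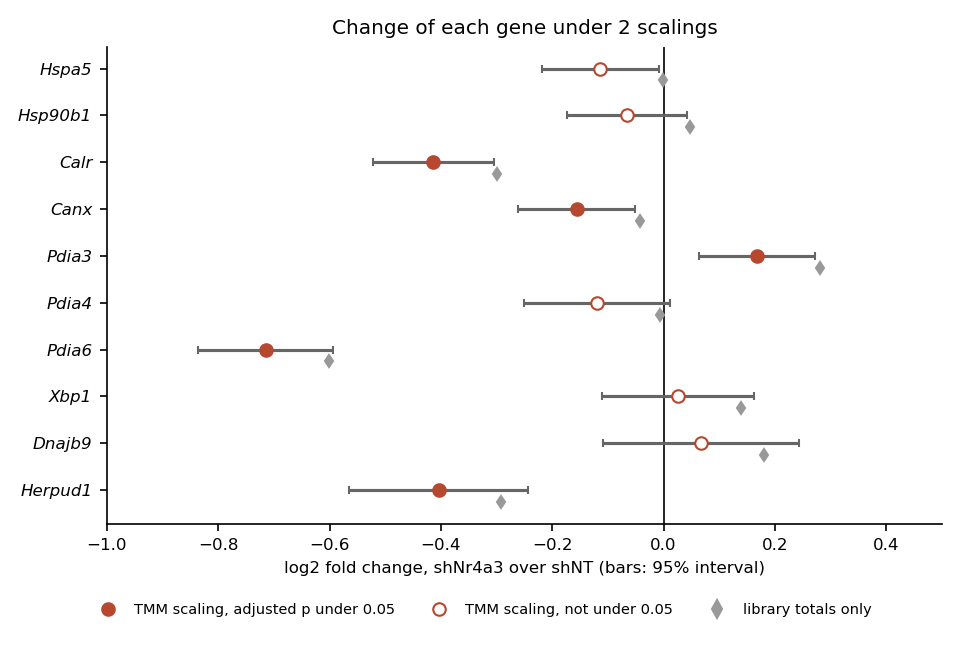
Log2 fold change of shNr4a3 over shNT for each gene with TMM scaling (circles, filled where the adjusted p is under 0.05; bars, 95% interval) and with library totals only (diamonds). Pdia6 at -0.71, Calr at -0.41 and Herpud1 at -0.40 lie left of 0 under both scalings, and Pdia3 at 0.17 lies right of 0 under both.

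Of the stress factors, Herpud1 fell and Xbp1 did not pass. Herpud1 (chromosome 8, 94386438 to 94395377), a membrane protein of ER-associated degradation that is strongly induced by ER stress, had 1647 and 1713 counts in shNr4a3 and 2005 and 2114 in shNT. Its 46.3 and 47.2 CPM in shNr4a3 stood below 61.5 and 62.3 in shNT, with tight pairs on both sides. The log2 fold change was -0.40 ± 0.08 and the level fell by 24.4% (adjusted p = 6.09e-05, edgeR). Xbp1 (chromosome 11, 5520659 to 5525893), the transcription factor whose mRNA IRE1 splices into its active form, had 111 and 105 CPM in shNr4a3 and 103 and 109 in shNT. These groups overlapped, and the log2 fold change was 0.03 ± 0.07 (95% interval -0.11 to 0.16; adjusted p = 0.765, edgeR), with the sign turned without shNr4a3 replicate 1 (-0.012) or shNT replicate 1 (-0.012). Counts per gene do not separate spliced from unspliced Xbp1, so IRE1 activity was not measured. Exons of Hsp90b1 share 415 of 4032 bases with a gene on the opposite strand. Those of Pdia6 share 50, those of Pdia3 share 18 and those of Dnajb9 share 14. The strand setting of the counting is unknown, so reads there may belong to either gene. On the same strand, Hsp90b1 shares 133 bases with Gm25745 and 84 with Gm15344, and Pdia4 shares 14 with Mir704. Reads in those bases may belong to either gene under any strand setting.

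Scaling by library totals alone raised the log2 fold change of the median gene by 0.113, close to the size of the changes of Hspa5 (-0.113) and Pdia4 (-0.120). Relative to that median the values with totals only were -0.72 for Pdia6, -0.42 for Calr, -0.41 for Herpud1, -0.16 for Canx and 0.16 for Pdia3. With totals only, Calr (-0.30), Pdia6 (-0.60), Herpud1 (-0.29) and Pdia3 (0.28) remained called, with adjusted p of at most 0.00286 (edgeR).

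Levels between genes were compared as normalised CPM per kilobase of the longest protein-coding transcript in GENCODE M21. By this measure Calr had the highest level of the 10, at 324 ± 1.02 in shNr4a3 and 432 ± 28.8 in shNT (SD, n = 2). Pdia3 followed at 278 ± 4.0 in shNr4a3 and 248 ± 7.37 in shNT. Hspa5 (182 ± 1.38 in shNr4a3, 197 ± 6.80 in shNT), Canx (176 ± 2.21 in shNr4a3, 196 ± 8.37 in shNT) and Hsp90b1 (169.8 ± 1.70 in shNr4a3, 178 ± 4.97 in shNT) came next, and in shNT Hspa5 and Canx did not differ beyond their spread. Pdia6 stood at 69.5 ± 1.70 in shNr4a3 and 114 ± 4.23 in shNT. Xbp1 (50.9 ± 1.91 in shNr4a3, 49.9 ± 1.98 in shNT) and Pdia4 (46.4 ± 0.604 in shNr4a3, 50.4 ± 1.26 in shNT) did not differ beyond their spread in shNT. Herpud1 (24.0 ± 0.324 in shNr4a3, 31.7 ± 0.299 in shNT) and Dnajb9 (21.4 ± 1.90 in shNr4a3, 20.4 ± 1.80 in shNT) were the lowest. The order depended on the length used. Per kilobase of exon union, Calr (246 ± 0.771) and Pdia3 (246 ± 3.53) were tied in shNr4a3, while Calr (327 ± 21.8) stood above Pdia3 (219 ± 6.50) in shNT. By that length Canx averaged above Hspa5 in both groups. Pdia4 (46.4 in shNr4a3, 50.4 in shNT) stood above Xbp1 (33.3 in shNr4a3, 32.7 in shNT), and in shNr4a3 also above Pdia6 (40.3). Dnajb9 (20.6 ± 1.84) and Herpud1 (20.1 ± 0.271) did not differ beyond their spread in shNr4a3.

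**Figure D4:**
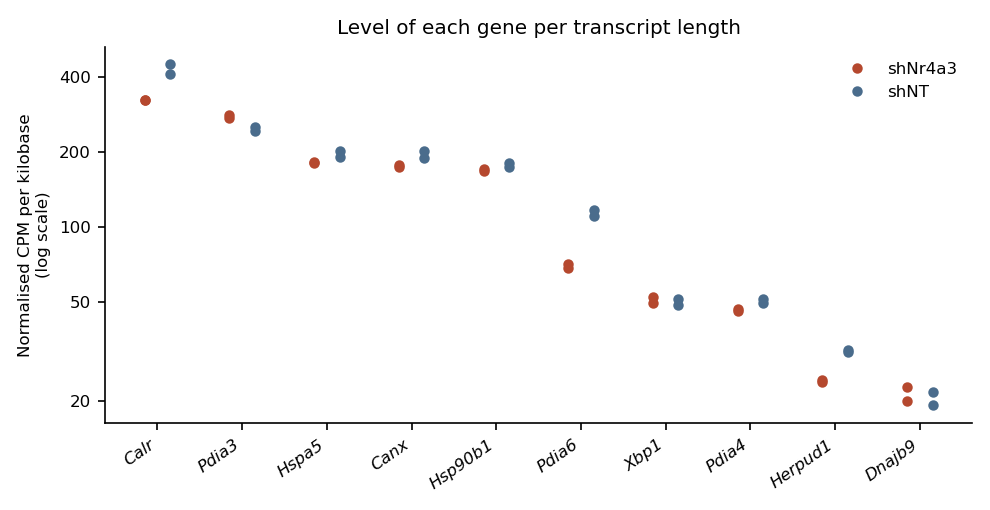
Normalised CPM per kilobase of transcript in each library (log axis), with genes ordered by their mean and shNr4a3 to the left of shNT. Pdia6 shows the widest gap between the groups, with means of 69.5 in shNr4a3 and 114 in shNT.

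The deposited FPKM values were not used for that order. The gene length behind each FPKM value was a whole number of bases for 100% of genes, within 0.01 bases, but bore no relation to annotated length: across 12491 genes Pearson r between log2 lengths was -0.01, against 0.85 between exon union and transcript length. The length behind FPKM was 1054 bases for Pdia4, whose transcript has 2399, and 7958 for Pdia6, whose transcript has 2175. By deposited FPKM, Pdia3 stood above Calr in shNr4a3 (306 and 233), Calr above Pdia3 in shNT (287 and 251), and Pdia4 ranked 4 of 10 in both groups, and 8 in shNr4a3 and 7 in shNT by annotated length. Ratios of FPKM within a gene are not affected by its length.

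The 5 genes most like Hspa5, by Euclidean distance between centred log2 CPM over the 4 libraries among the 5903 genes whose log2 CPM averaged 5 or more, were Ppip5k2, Ccdc50, Cdh11, Med8 and Scaf8, at distances of 0.0199 to 0.0230. Their log2 fold changes were -0.09 to -0.12, and none passed (adjusted p from 0.128 to 0.371, edgeR). The distance uses the same 4 libraries as the fold change, so values near that of Hspa5 follow from the selection. Shared regulation was not tested. Among the other members, Canx (0.0445) and Hsp90b1 (0.0483) were nearest to Hspa5 and Pdia6 (0.603) the farthest.

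The rest of the ER machinery was described through 9 lists of 143 genes, 140 of them tested. Of these 140, 46 rose and 51 fell, 69.3% in all against 55.5% of all genes, with a median log2 fold change of -0.01. The lists were chosen with earlier results of these data known, so the shares are descriptive and not an independent comparison. Counts and shares called in each list below compare with 55.5% of all genes called, 27.6% higher and 27.9% lower. The median absolute log2 fold change of the 140 was 0.25, against 0.35 over all genes, without a match for expression level. When shNr4a3 replicate 1 was left out, 27 rose.

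Among 10 stress sensors, their substrates and ATF6-type factors 5 fell and 2 rose (70% called, median -0.12). Ern1, which encodes the sensor IRE1, had 1645 and 1494 counts in shNr4a3 and 2601 and 2782 in shNT and fell by 0.89 (SE 0.08). Eif2ak3, which encodes PERK, fell by 0.27 and Atf6 stood at 0.02 ± 0.06 on that scale (adjusted p = 0.751, edgeR); both are named after their values were seen. Creb3l1, an ATF6-like factor of collagen secretion, fell by 0.74 (SE 0.07), and Mbtps1, the site-1 protease that cleaves ATF6, by 0.60 (SE 0.07). Eif2s1, the translation factor that PERK phosphorylates, rose by 0.48 (SE 0.06) and Atf6b by 0.37 (SE 0.07). With library totals only 4 of the list rose.

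The PERK, ATF4 and CHOP list held the largest fall of the 9 lists: 8 of 14 fell and 4 rose (85.7% called, median -0.22). Trib3, a pseudokinase induced by CHOP, had 112 and 131 counts in shNr4a3 and 523 and 504 in shNT, giving -2.19 ± 0.17 on the log2 scale (adjusted p = 2.37e-12, edgeR). Atf5, a factor induced with ATF4 signalling, had 3072 and 3097 counts in shNr4a3 and 6641 and 7152 in shNT (-1.27 ± 0.06), and Cebpb fell by 1.27 (SE 0.08). Atf4 itself stood at -0.02 ± 0.06 (adjusted p = 0.804, edgeR) and is named after its value was seen. Ddit4, an inhibitor of mTOR signalling, rose by 0.69 (SE 0.08), and Ddit3, which encodes CHOP, by 0.19 (SE 0.07; adjusted p = 0.0160, edgeR). When shNr4a3 replicate 1 or 2 was left out Ddit3 (0.16 and 0.22) was not called, and 1 member of the list rose in each case.

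**Figure D5:**
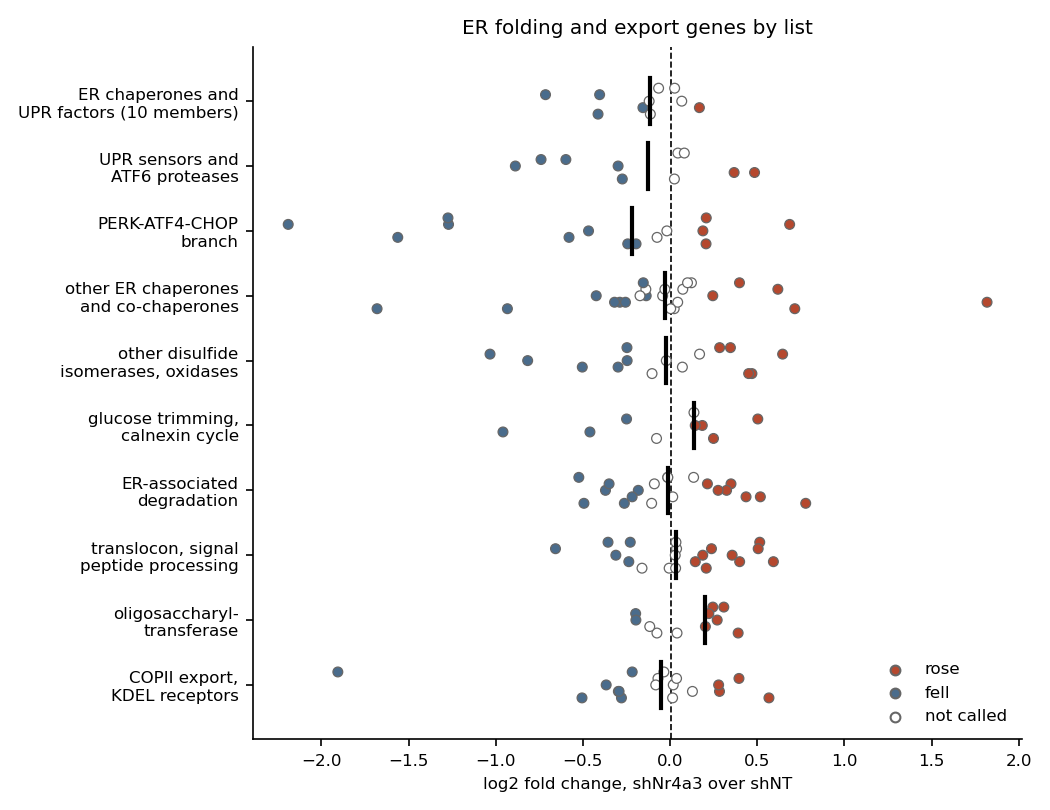
Log2 fold change of shNr4a3 over shNT for every tested gene of each list (points, coloured by call), with the list median (bar) and the median of all genes (dashed line). The PERK-ATF4-CHOP points reach down to -2.19, and the oligosaccharyltransferase points stay between -0.20 and 0.39.

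Other folding helpers split as well. Of 23 other chaperones and co-chaperones 5 rose and 8 fell (56.5% called, median -0.03), and 10 did not pass. Hspa13, an Hsp70-like ER protein, rose by 0.71 (SE 0.07) and Fkbp9, a prolyl isomerase, by 0.40 (SE 0.05), while Fkbp11 fell by 1.68 (SE 0.20; 105 and 154 counts in shNr4a3, 338 and 432 in shNT). With library totals only 9 rose and 5 fell, and without either shNr4a3 library 3 rose and 5 fell. Of 15 tested isomerases and oxidases outside the 10 genes 5 rose and 6 fell (73.3% called, median -0.02). P4hb, the founding disulfide isomerase and a subunit of collagen prolyl hydroxylase, had 20085 and 20676 counts in shNr4a3 and 38772 and 38439 in shNT, giving -1.03 ± 0.05 on the log2 scale (adjusted p = 2.52e-17, edgeR). Qsox2 fell by 0.82 (SE 0.09), whereas the membrane-bound Tmx1 (0.65 ± 0.07) and the peroxiredoxin Prdx4 (0.47 ± 0.07) rose.

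The sugar cycle that feeds calnexin and calreticulin moved in both directions, with 77.8% of its genes called. Of 9 genes 4 rose and 3 fell (median 0.14), and without shNr4a3 replicate 1, 2 rose and 1 fell. Both subunits of glucosidase II, which trims glucose so that the lectins can bind and release, fell: Prkcsh, the beta subunit, by 0.96 (SE 0.06) and Ganab, the alpha subunit, by 0.25 (SE 0.06). The Ganab call was lost when shNr4a3 replicate 1 was left out (-0.22, adjusted p = 0.0669, edgeR). Uggt2, a folding sensor that adds glucose back, rose by 0.50 (SE 0.08). Without shNr4a3 replicate 2, 1 gene of this list rose.

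ER-associated degradation, the route that Herpud1 serves, had equal numbers each way, 7 up and 7 down of 20 tested (70% called, median -0.01). Sel1l, the scaffold of the main ligase complex, rose by 0.52 (SE 0.06), while Os9, a lectin that selects clients, fell by 0.52 (SE 0.06). Entry into the ER had 9 genes up and 5 down of 20 (70% called, median 0.04). Ssr2, a translocon-associated subunit, rose by 0.59 (SE 0.06) and Srpr, a subunit of the signal recognition particle receptor, by 0.50 (SE 0.06), whereas the signal peptidase subunits Spcs2 (-0.66 ± 0.09) and Spcs3 (-0.36 ± 0.06) fell. Without shNr4a3 replicate 1, 4 rose and 3 fell in this list, and 3 fell with library totals only or without shNr4a3 replicate 2.

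The oligosaccharyltransferase, which attaches the glycans that calnexin and calreticulin later read, had 6 of 11 genes up and 2 down (72.7% called, median 0.20). Its catalytic subunits Stt3b (0.31 ± 0.06) and Stt3a (0.22 ± 0.06) and the subunit Tmem258 (0.39 ± 0.10) rose, and Rpn2 (-0.20 ± 0.06) and Magt1 (-0.20 ± 0.07) fell. Only 1 rose without shNr4a3 replicate 1, where Stt3a (0.19) and Tmem258 (0.33) did not pass, and neither Rpn2 nor Magt1 was called with library totals only (-0.083 and -0.085). Without shNr4a3 replicate 1 or 2 the calls of Rpn2 (-0.16 and -0.23) and Magt1 (-0.16 and -0.24) were lost at similar fold changes, and Magt1 also did not pass without shNT replicate 2 (-0.093). Of 18 export and retrieval genes 4 rose and 7 fell (61.1% called, median -0.05). Lman2, a cargo lectin, had 1362 and 1439 counts in shNr4a3 and 5019 and 4691 in shNT, giving -1.91 ± 0.07 on the log2 scale (adjusted p = 6.28e-20, edgeR). Kdelr1, a receptor that returns escaped ER chaperones, fell by 0.51 (SE 0.07), and the coat and coat-recruiting genes Sec23a (0.57 ± 0.06) and Sar1b (0.39 ± 0.08) rose.

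All 4 genes of the set that fell held a match printed above, an ERSE in Pdia6, Calr and Canx and an ERSE-II in Herpud1. Hspa5 and Hsp90b1 held an ERSE too and did not pass, and of the genes without either element Pdia3 rose and Pdia4, Xbp1 and Dnajb9 did not pass. The relation between the elements and the changes was not tested. Over all tested genes with an ERSE in the window, 8 of 20 fell, against 27.9% of all genes, and 2 rose, against 27.6%; 50% were called in either direction, against 55.5%, with a median log2 fold change of -0.13. Leaving out the members, 5 of 15 fell and 2 rose, with a median of -0.11. Of 8 tested genes with an ERSE-II, 2 fell and 3 rose, 62.5% in all, with a median of 0.10. Without Herpud1, 1 of 7 fell and 3 rose, with a median of 0.12. Syvn1, Ero1b, Dnajc3 and Creld2 are the genes of the pathway lists with an ERSE, named after their values were seen. Syvn1, the ubiquitin ligase of ER-associated degradation (-0.35), Ero1b, an ER oxidase (-0.50), and Dnajc3, an Hspa5 partner (-0.14), fell. Creld2 stood at -0.03 and did not pass (adjusted p = 0.786, edgeR). Outside the lists, Acacb (-1.08) and Adcy3 (-1.18) fell, and Spats2l (0.54) and Xlr3b (0.82) rose.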

How the data were processed

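Whole-number counts per gene of 4 libraries were used as deposited by the authors. The labels' protocols describe ribosomal RNA depletion and stranded paired-end libraries, while the labels also name polyA RNA. The submitters' processing notes name mm10, Trimmomatic 0.36, featureCounts, Subread 1.5.1 and SAMtools, with no aligner or strand setting given. The lowest mean count listed was 10.25. Per the file headers, the table also holds the authors' FPKM, used as described above, their mean signal and test score, not used, and their log2 fold change with its p-value, quoted for the 10 genes.

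The test was edgeR's quasi-likelihood test (version 4.0.16, R 4.3.3; robust, group as the only term, TMM, default filterByExpr, two-sided, adjusted p under 0.05); the filter removed 32 genes. SE is the size of the log2 fold change over the square root of F. The common biological coefficient of variation was 6.57%. The 10 genes and the lists were chosen with earlier results of these data known. Named genes of the 9 lists are the 3 with the smallest p among those called and up to 2 called against the list's majority. Not every gene that this rule names is reported here. Alternatives were DESeq2 1.42.0, limma-voom (limma 3.58.1), other scalings and filters, a replicate block, each library left out, the 20 most abundant and the mitochondrial genes removed, and a test against 0.5. The script was tested on simulated data. Levels were planned from FPKM and taken from annotated lengths once the FPKM lengths were found not to match. The chi-square per gene between replicates was 4.00 in shNr4a3 and 11.2 in shNT, above sampling noise, so no library was treated as a copy.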

Additional observations from a re-analysis of the deposited data

How the results depend on the processing

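Pdia6, Calr and Herpud1 kept their direction and call in all 14 alternatives to the test, scaling, filter and libraries, except that Calr (-0.41) and Herpud1 (-0.40) did not pass when edgeR tested against 0.5, nor did Canx (-0.16) and Pdia3 (0.17), with an adjusted p of 1 for each. That test called 0 members higher and 1 lower, 4 pathway genes higher and 11 lower (46 and 51 as reported), and 750 of all genes higher and 1351 lower (3635 and 3674 as reported). Hspa5 passed with limma-voom (-0.11, adjusted p = 0.0448) and with a stricter filter (-0.13, adjusted p = 0.0294, edgeR). With library totals only Hsp90b1 turned to 0.047 and Canx was at -0.043, and 62.4% of all calls were higher, against 49.7%. With 1 library left out, members called higher ranged from 0 to 1 and lower from 3 to 6, and pathway genes called higher from 27 to 49. The log2 fold change then ranged from -0.15 to -0.075 for Hspa5, -0.092 to -0.035 for Hsp90b1, -0.20 to -0.11 for Canx, 0.14 to 0.20 for Pdia3, -0.14 to -0.092 for Pdia4, -0.012 to 0.069 for Xbp1 and -0.027 to 0.16 for Dnajb9; Xbp1 (-0.012) and Dnajb9 (-0.018) also turned without shNT replicate 1. In each of these fits the spread came from the other group's pair alone. The cause was not tested.

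Deviations of same-numbered libraries correlated at -0.10 across 5913 genes, so no pairing by number was seen. With 2 libraries per group this is a single correlation, and it cannot exclude a weak pairing. With the replicate block 1 member was called higher and 4 lower, and with the crossed pairing, chosen after seeing the data, 1 higher and 4 lower.

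By deposited FPKM the mean levels over 4 libraries were 104 for Hspa5, 92.3 for Hsp90b1, 260.3 for Calr, 115 for Canx, 278 for Pdia3, 110.0 for Pdia4, 24.8 for Pdia6, 58.9 for Xbp1, 17.3 for Dnajb9 and 13.9 for Herpud1. Per kilobase of exon union, chosen after seeing the data, they were 164 for Hspa5, 122 for Hsp90b1, 287 for Calr, 169.7 for Canx, 232 for Pdia3, 53.3 for Pdia6, 33.0 for Xbp1 and 23.3 for Herpud1.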
